A study of Mus musculus with 35 samples.

Results

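The 8 genes described here encode insulin-like growth factor 1 (Igf1), its receptor (Igf1r) and 6 binding proteins (Igfbp2, Igfbp3, Igfbp4, Igfbp5, Igfbp6 and Igfbp7). The set was selected on 1 measured difference, the lower Igfbp3 signal of mouse lung at 20 ppm styrene than in air, and its genes were then listed by symbol; the brightest probe set of each gene stands for it. Of the 8, 7 were measured, by 18 probe sets, among 17097 named genes on the array. Igfbp7 has no probe set in the annotation used and was not analysed here.

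Insulin-like growth factor 1 is a small secreted hormone that drives growth and survival through a receptor tyrosine kinase on the cell surface. The liver supplies most of the circulating hormone under the control of growth hormone, and in the lung fibroblasts and macrophages also make it. The binding proteins hold the hormone in blood and tissue, extend its life and limit or direct its access to the receptor, and proteases release it by cutting them.

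The lungs came from adult male wild-type C57Bl/6 mice bought from Taconic, with 5 mice in each of 7 groups. The mice breathed air (0 ppm) or styrene at 1, 5, 10, 20, 40 or 120 ppm once, for 6 h, and the tissue was taken on the morning after. Styrene is a volatile industrial monomer that mouse lung oxidises, chiefly in the club cells of the airways. Total RNA of the whole lung was labelled with biotin and hybridised to Affymetrix HT MG-430 PM arrays, 1 per mouse, and every level below is a log2 signal. A difference of 1 on that scale is a doubling of signal, and levels of different genes cannot be set against each other because probes differ in brightness.

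The tissue carried the markers of lung: the mean log2 level of 3 club cell markers (Scgb1a1, Scgb3a2 and Cyp2f2) ran from 13.40 to 13.52 on the air arrays, and that of 4 alveolar type 1 markers (Ager, Hopx, Aqp5 and Pdpn) from 12.16 to 12.20. The 120 ppm arrays stood apart from the other 30. On the first principal component, which held 60.7% of the variance, they lay between 66.1 and 113.2 and the others between -31.9 and 6. Their poly-A spike-ins, control RNAs added to each sample, read 7.73 to 8.67 against 5.98 to 6.89 elsewhere, and their highest nonspecific-hybridisation control 6.71 to 7.36 against 4.57 to 6.43. That control is used below as the background level of each array. The spike-in level thus moves with the 120 ppm dose. For the measured genes of the set, counts with it as a covariate are given beside the 120 ppm counts. The other gene lists and the cell type markers were not read with this covariate. Hepatocyte markers (mean of 6 genes) were at 8.74 to 9.95 on 4 arrays, namely air replicates 3 and 4, 1 ppm replicate 2 and 20 ppm replicate 2, and at most 6.8 on the other 31. The titles of 1 ppm replicate 5 and 5 ppm replicate 1 carry the same animal number, 15, but the arrays differed (r = 0.9836 across genes, against a median of 0.9915 within groups).

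Igfbp3, the main carrier of the hormone in blood, had the widest fall of the binding proteins between air and 20 ppm, which is what led to the choice of these genes, and Igf1 was higher in the same dose range. The stretches just upstream of the start sites of these 2 genes are shown because their transcripts differed from air in opposite directions at 10, 20 and 40 ppm. Both are 250 bases long and come from RefSeq on build GRCm38.p6. The Igfbp3 stretch is chr11:7213924-7214173 on the minus strand, and its capitals mark 3 overlapping matches to the core promoter pattern TATANA that start 30 or 32 bases upstream of the start site. The Igf1 stretch is chr10:87860861-87861110 on the plus strand, and its capitals mark a match to TGANTCA, an AP-1 pattern, 37 bases upstream.
Igfbp3: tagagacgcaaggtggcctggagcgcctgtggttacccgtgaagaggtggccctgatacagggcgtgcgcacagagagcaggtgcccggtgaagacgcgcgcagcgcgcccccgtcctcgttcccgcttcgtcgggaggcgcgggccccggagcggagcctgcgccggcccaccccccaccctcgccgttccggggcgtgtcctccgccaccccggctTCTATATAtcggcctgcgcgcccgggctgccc
Igf1: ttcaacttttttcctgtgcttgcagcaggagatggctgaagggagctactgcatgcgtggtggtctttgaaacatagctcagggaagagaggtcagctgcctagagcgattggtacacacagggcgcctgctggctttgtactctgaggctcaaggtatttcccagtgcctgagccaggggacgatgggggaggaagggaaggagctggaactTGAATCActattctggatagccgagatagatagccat
Both strands were searched. TATANA occurs in 22.6% of 32851 such stretches of the mouse genome and TGANTCA in 6.75%. The patterns GGGCGG (a GC box, in 32.7%), AANNGAAA (an interferon regulatory factor core, in 21.3%) and TGTTTTG (an insulin response core, in 5.56%) had no match in either stretch. These are matches of letters and describe the sequences only.

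Igfbp3 was lower at every dose from 10 ppm up. In air its log2 signals were 8.98, 8.78, 8.92, 8.30 and 8.35 in replicates 1 to 5, a mean of 8.66 ± 0.32 (SD, n = 5). At 10 ppm they were 7.96, 7.89, 7.12, 7.03 and 7.53, all below the lowest air value. At 20 ppm they were 7.11, 6.69, 6.33, 7.18 and 7.12, which lies 1.78 below air. This last difference chose the genes and is given without a test for all of them; across all genes 13.2% passed the threshold in that comparison. The 40 ppm values of 7.29, 7.26, 7.23, 6.70 and 7.11 and the 120 ppm values of 7.85, 7.86, 7.88, 7.00 and 7.43 also lay below every air value. All 40 ppm arrays were above background, whereas 1 array of the 20 ppm group and 1 of the 120 ppm group were not.

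The 1 ppm group gives mean differences using no array of the comparison that chose the genes, though the spread is pooled over all arrays. Its Igfbp3 signals were 9.16, 8.99, 9.47, 8.72 and 9.13. Against them Igfbp3 fell by 1.59 at 10 ppm (SE 0.19, adjusted p = 2.743e-07), by 1.98 at 40 ppm (adjusted p = 3.93e-09) and by 1.49 at 120 ppm (adjusted p = 2.528e-08), which are 3.01-fold, 3.93-fold and at least 2.78-fold lower signals. In none of these 3 comparisons did the groups overlap. All adjusted p-values are from limma, adjusted by Benjamini-Hochberg over the 17097 genes, with 0.05 as the threshold. Against air, whose arrays are shared with the comparison that chose the genes, Igfbp3 was lower by 1.16 at 10 ppm (adjusted p = 4.733e-05), 1.55 at 40 ppm (adjusted p = 5.437e-07) and 1.06 at 120 ppm (adjusted p = 1.043e-05).

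The low doses did not separate from air by this test. At 5 ppm Igfbp3 read 8.58, 8.68, 8.46, 8.56 and 8.44, within the air range, with a difference of -0.12 (95% interval -0.51 to 0.27, adjusted p = 0.9999). At 1 ppm the mean was 0.43 above air (interval 0.04 to 0.82, adjusted p = 0.6828), and 4 of the 5 arrays lay above every air array. The 5 ppm arrays all lay below the 1 ppm arrays, by 0.55 in the mean, which also missed the threshold (adjusted p = 0.1703). In the order of the means (20, 40, 10, 120, 5, 0 and 1 ppm, from low to high), the only neighbouring groups with no overlap were 120 and 5 ppm. Between 40 and 120 ppm the mean rose by 0.49 (adjusted p = 0.02471). Leaving out 40 ppm replicate 4 or 120 ppm replicate 1, 2 or 3 ended that call (0.38 to 0.42, adjusted p = 0.0653 to 0.0888), and leaving out 120 ppm replicates 4 and 5 together made it 0.75.

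Markers of some cell types moved in the same doses. Of the 3 club cell markers, 2 fell at 10 ppm and 3 at 40 ppm, against both air and 1 ppm, and their mean level went from 13.40 to 13.52 in air to 12.91 to 13.13 at 40 ppm. Of 8 endothelial markers, 1 fell at 10 ppm and 4 at 40 ppm against 1 ppm, with mean levels of 9.88 to 10.14 at 1 ppm and 9.61 to 9.76 at 40 ppm, and none was at background. Against air, 0 of these 8 fell at 10 ppm and 2 at 40 ppm. Of all genes, 11.8% and 12.7% changed at 10 and 40 ppm against air, and 11.1% and 14.5% against 1 ppm. The endothelial count at 10 ppm against 1 ppm was thus near the share of all genes. The part of the club cell and endothelial markers in the Igfbp3 result was not tested. In whole lung, fewer cells of a type and less RNA per cell cannot be told apart.

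**Figure D1:**
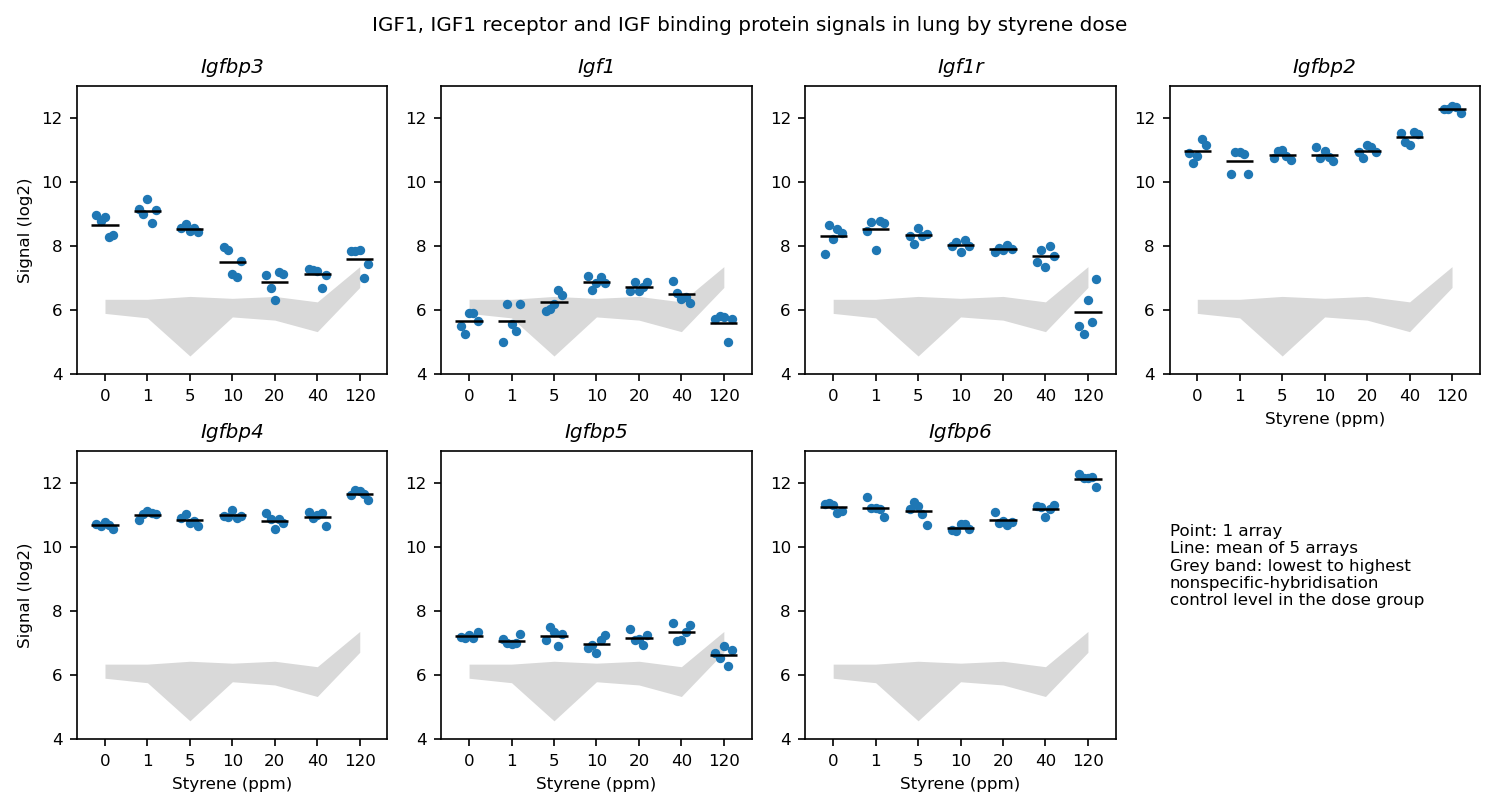
Log2 signal (vertical axis) of the brightest probe set of 7 genes on every array, by styrene dose in ppm (horizontal axis); points are arrays, lines are means of 5 arrays and the grey band spans the nonspecific-hybridisation control of the group's arrays. Igfbp3 drops between 5 ppm (mean 8.55) and 10 ppm (mean 7.50), Igf1 leaves the band at 10 and 20 ppm, and Igf1r lies in or below it at 120 ppm.

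Igf1, the hormone itself, was not above background on any air array and lay above it on every array at 10 and 20 ppm. Its log2 signals in air were 5.51, 5.27, 5.92, 5.90 and 5.67. At 10 ppm they were 7.06, 6.64, 6.84, 7.04 and 6.85, and at 20 ppm 6.60, 6.88, 6.60, 6.73 and 6.87, so that all 10 of these arrays lay above every air array and above background. At 40 ppm they were 6.91, 6.53, 6.36, 6.42 and 6.24, with 4 of the 5 above background. At 120 ppm they were 5.74, 5.82, 5.78, 5.01 and 5.72, none above background, with replicate 4 below every air array and the other 4 in the air range.

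Against 1 ppm (5.01, 6.18, 5.56, 5.35 and 6.20, with 2 arrays above background), Igf1 rose by 1.22 at 10 ppm (SE 0.18, adjusted p = 1.141e-05) and by 0.83 at 40 ppm (adjusted p = 0.001594). Because most 1 ppm arrays were at background, these are given as at least 1.60-fold and at least 1.21-fold. A bound of this kind takes, on each dim array, the background control where the gene lay below it. Against air the rises were 1.23 at 10 ppm (adjusted p = 1.021e-05, at least 1.75-fold) and 0.84 at 40 ppm (adjusted p = 0.001699, at least 1.33-fold). The value at 20 ppm, described only, was 1.08 above air. From 40 to 120 ppm the Igf1 signal differed by -0.88 (adjusted p = 9.305e-05), with no 120 ppm array above background, and no fold is given because the background was itself higher on the 120 ppm arrays. With the spike-in level as a covariate this difference turned to 0.13 (adjusted p = 0.855), and no direction is given.

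At 5 ppm the Igf1 signals were 5.99, 6.05, 6.20, 6.64 and 6.46. All lay above every air array, but the difference of 0.61 missed the threshold (interval 0.24 to 0.99, adjusted p = 0.1415). The difference from 1 ppm was also 0.61 (adjusted p = 0.0888). It passed when 1 ppm replicate 2 or 5 was left out (0.73 and 0.74, adjusted p = 0.0314 and 0.0237), and when both arrays with animal number 15 were left out (0.81, adjusted p = 0.0193). The other Igf1 probe sets were closer to air at 5 ppm, by 0.43, 0.18 and 0.20, and overlapped it. From 1 ppm they differed by 0.39, -0.05 and 0.13, and none of them passed in either comparison. At 120 ppm the difference of the brightest set from air was -0.04 (interval -0.41 to 0.34) as deposited. It was 0.42 (adjusted p = 0.0372) after quantile normalisation, so no direction can be given there. In the order of its means (120, 0, 1, 5, 40, 20 and 10 ppm), every group overlapped its neighbour.

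All 4 Igf1 probe sets rose at 10 ppm against air, by 1.23, 1.25, 1.40 and 1.51 on the log2 scale. At 40 ppm against 1 ppm they differed by 0.83, 0.90, 0.77 and 0.59. Of these, 0.77 and 0.59 missed the threshold (adjusted p = 0.05254 and 0.1996 over all probe sets with 1 symbol). At 40 ppm against air they differed by 0.84, 0.94, 0.85 and 0.82, of which 0.82 missed it (adjusted p = 0.0648). Of 8 fibroblast markers, 3 rose and 1 fell at 10 ppm against air; their mean level was 7.99 to 8.39 in air and 8.21 to 8.56 at 10 ppm, with Col1a2 at background on every array. Of 5 alveolar macrophage markers, 2 rose and 1 fell, with mean levels of 8.62 to 8.94 in air and 8.59 to 8.95 at 10 ppm. Against 1 ppm (8.33 to 8.64), 3 of these macrophage markers rose and 1 fell at 10 ppm, with a median of 0.47, and of the fibroblast markers 2 rose and 1 fell. Of 5 smooth muscle and pericyte markers, 4 rose at 10 ppm against air and none against 1 ppm. Beside these counts, 11.8% of all genes changed at 10 ppm against air and 11.1% against 1 ppm. The part of the fibroblast, macrophage and smooth muscle markers in the Igf1 result was not tested. Air replicates 3 and 4, 1 ppm replicate 2 and 20 ppm replicate 2, which held hepatocyte RNA, had Igf1 signals of 5.92, 5.90, 6.18 and 6.88, and the calls at 10 and 40 ppm held without those arrays.

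Igf1r, the tyrosine kinase that binds the hormone, stepped down at the upper doses. Its log2 signals in air were 7.75, 8.66, 8.21, 8.53 and 8.41, and at 1 ppm 8.47, 8.75, 7.89, 8.80 and 8.71. At 10 ppm they ran from 7.82 to 8.18, at 20 ppm from 7.82 to 8.02, and at 40 ppm they were 7.52, 7.89, 7.36, 7.99 and 7.68. The 40 ppm arrays were lower than 1 ppm by 0.84 (adjusted p = 0.00587), with overlap. Their difference from air, -0.62 (interval -1.06 to -0.19), just missed the threshold (adjusted p = 0.05003) and passed it without air replicate 1 (-0.76, adjusted p = 0.0161) or without 40 ppm replicate 4 (-0.70, adjusted p = 0.0463).

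At 120 ppm the brightest Igf1r probe set read 5.52, 5.26, 6.33, 5.62 and 6.98, below every array of any other dose, and only 1 of the 5 was above background. It fell by 2.37 from air (SE 0.21, adjusted p = 9.692e-12) and by 1.75 from 40 ppm (adjusted p = 9.699e-09), at least 2.13-fold and at least 1.39-fold. The probe sets disagreed on this step. Another set fell by 2.74, but the next in brightness, above background on all 5 air arrays and on 4 of the 5 at 120 ppm, differed from air by 0.06 (interval -0.19 to 0.31), and the last was below background at every dose. At 40 ppm against 1 ppm, by contrast, all 3 of these sets fell, by 0.72 for the one that did not drop at 120 ppm and by 0.84 and 0.64 for the other two. Of the 3 probe sets above background in air, 2 showed the drop at 120 ppm.

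**Figure D2:**
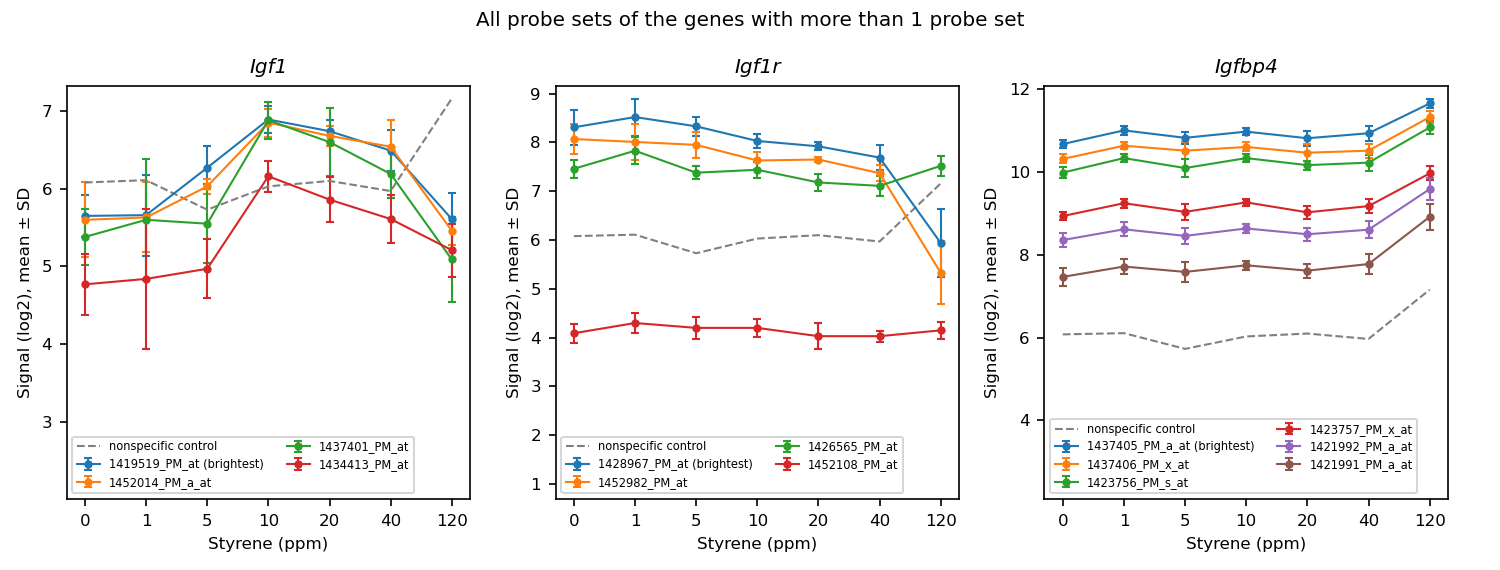
Mean log2 signal ± SD of 5 arrays (vertical axis) at each styrene dose in ppm (horizontal axis) for every probe set of Igf1 (4 sets), Igf1r (4 sets) and Igfbp4 (6 sets); the dashed line is the mean nonspecific-hybridisation control. The Igf1 sets rise together at 10 ppm and the Igfbp4 sets at 120 ppm, whereas only 2 Igf1r sets fall at 120 ppm.

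Igfbp2, a binding protein that also marks mature alveolar type 1 cells, rose at the 2 highest doses. Its air signals were 10.91, 10.60, 10.82, 11.33 and 11.16. The groups from 1 to 20 ppm had means of 10.65 to 10.97 and overlapped air. At 40 ppm the signals were 11.54, 11.26, 11.16, 11.55 and 11.50, and at 120 ppm 12.27, 12.28, 12.38, 12.33 and 12.17, with no overlap between these 2 groups or between either and 20 ppm.

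Igfbp2 rose against 1 ppm by 0.75 at 40 ppm (SE 0.13, adjusted p = 0.0001276, 1.68-fold) and by 1.63 at 120 ppm (adjusted p = 1.147e-12, 3.10-fold), and from 40 to 120 ppm by 0.88 (adjusted p = 5.74e-07). The 40 ppm rise against air was smaller, at 0.44 (adjusted p = 0.02471). It missed the threshold without air replicate 2 or 3 or without 40 ppm replicate 1, 4 or 5 (0.35 to 0.42, adjusted p = 0.0553 to 0.101). A step from 10 to 40 ppm, a comparison added after the values had been seen, was 0.56 (adjusted p = 0.00947). Of 4 alveolar type 1 markers, 2 rose and none fell at both 10 and 40 ppm against 1 ppm, and 2 rose and 2 fell at 120 ppm; their mean level was 12.28 to 12.41 at 40 ppm and 12.04 to 12.35 at 120 ppm. In these comparisons with 1 ppm, 11.1% of all genes changed at 10 ppm, 14.5% at 40 ppm and 73.7% at 120 ppm. The part of the alveolar type 1 markers in the Igfbp2 result was not tested.

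Igfbp6, which binds IGF2 in preference to IGF1, fell at 10 ppm and rose at 120 ppm. In air it read 11.33, 11.36, 11.30, 11.07 and 11.13. At 10 ppm it read 10.53, 10.51, 10.70, 10.70 and 10.57, all below every air array, and at 20 ppm 11.08, 10.76, 10.82, 10.68 and 10.79. At 40 ppm 4 of the 5 arrays were in the air range, with signals of 11.28, 11.26, 10.93, 11.18 and 11.31. At 120 ppm it read 12.28, 12.15, 12.16, 12.18 and 11.88, all above every air array.

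The fall of Igfbp6 at 10 ppm was 0.63 against 1 ppm (SE 0.11, adjusted p = 0.0001717) and 0.64 against air (adjusted p = 0.0001332). At 40 ppm the differences were -0.04 (interval -0.27 to 0.20) and -0.05 (interval -0.28 to 0.18). Signal rose by 0.59 from 10 to 40 ppm (adjusted p = 0.001476), a comparison added after the values had been seen. From 40 to 120 ppm it rose by 0.94 (adjusted p = 7.38e-09). With the spike-in level as a covariate, the 120 ppm rise did not pass against 40 ppm (0.27, adjusted p = 0.463), air (0.24, adjusted p = 0.495) or 1 ppm (0.23, adjusted p = 0.53). Mesothelial markers, of which 4 of 5 fell at 10 ppm against air (median -0.75, mean level 6.98 to 7.51 against 7.90 to 8.44, Wt1 at background throughout), moved with it in that comparison. At 10 ppm against 1 ppm none of the 5 changed (median -0.07). Across all genes, 11.8% changed at 10 ppm against air and 11.1% against 1 ppm. The part of the mesothelial markers in the Igfbp6 result was not tested.

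Igfbp4, a binding protein that the protease PAPP-A cuts, rose at 120 ppm and, by a smaller step and against air only, at 10 ppm. In air it read 10.73, 10.66, 10.78, 10.68 and 10.55, and at 120 ppm 11.63, 11.77, 11.75, 11.66 and 11.46. The rise was 0.98 against air (SE 0.09, adjusted p = 1.802e-11, 1.97-fold) and 0.65 against 1 ppm (adjusted p = 1.22e-07), and all 6 of its probe sets rose against air, by 0.98 to 1.45. With the spike-in level as a covariate the rise was 0.57 against air (adjusted p = 0.0301), and 0.23 against 1 ppm, which did not pass (adjusted p = 0.45). At 10 ppm it read 10.96, 10.93, 11.14, 10.91 and 10.98, above every air array, a rise of 0.30 (adjusted p = 0.02194). That call ended without air replicate 5 or 10 ppm replicate 3 (0.27 each, adjusted p = 0.0657 and 0.0677) and without the 4 arrays with hepatocyte RNA (0.34, adjusted p = 0.0558). Among the other probe sets, the 10 ppm rise from air was 0.35 and 0.33 in those that passed. It was 0.28 in each that missed (adjusted p = 0.07037, 0.1431 and 0.2518 over all probe sets with 1 symbol). Against 1 ppm, where Igfbp4 read 10.83 to 11.11, the 10 ppm difference was -0.02 (interval -0.21 to 0.16). The 1 ppm group was itself 0.33 above air (adjusted p = 0.3227), with no overlap. At 40 ppm against air the Igfbp4 difference was 0.26 (interval 0.08 to 0.45) and just missed the threshold (adjusted p = 0.05061).

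Igfbp5, a binding protein that also attaches to extracellular matrix, had group means of 6.96 to 7.34 up to 40 ppm and read lower, near background, at 120 ppm. Its air signals were 7.18, 7.16, 7.24, 7.15 and 7.34, and its 10 ppm signals 6.83, 6.95, 6.70, 7.10 and 7.24. The difference at 10 ppm was -0.25 (interval -0.51 to 0.00, adjusted p = 0.2312). At 120 ppm it read 6.70, 6.53, 6.90, 6.28 and 6.77, with 1 of the 5 above background, which was 0.58 below air (adjusted p = 0.0001289, at least 1.03-fold) and 0.70 below 40 ppm (adjusted p = 9.443e-06, at least 1.12-fold). Against 1 ppm the difference was -0.44 (adjusted p = 0.002476). With background in place of the dim signals that bound was 0.932-fold, so no size of fall can be given there. The fall against air ended when arrays were centred on their medians (-0.19, adjusted p = 0.15) or quantile normalised again (-0.17, adjusted p = 0.213).

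Counted over the 7 measured genes, none changed at 1 ppm against air, where 0% of all genes passed. At that dose 1190 genes had an unadjusted p under 0.05, and the smallest adjusted p was 0.105. None changed at 5 ppm against air (1.16% of all genes) or against 1 ppm (1.97%). At 10 ppm, 4 changed against air (11.8% of all genes), with Igf1 and Igfbp4 higher and Igfbp3 and Igfbp6 lower, and 3 changed against 1 ppm (11.1%), without Igfbp4. At 40 ppm, 3 changed against air (12.7%), with Igf1 and Igfbp2 higher and Igfbp3 lower, and 4 against 1 ppm (14.5%), with Igf1r lower as well. From 10 to 40 ppm, a comparison added after the values had been seen, 2 rose (5.88%), namely Igfbp2 and Igfbp6. Comparisons with a common reference group share its arrays and are not separate evidence.

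At 120 ppm most genes of the array had moved, so the counts say little about these ones. Against air 6 of the 7 changed, 3 in each direction, beside 74.8% of all genes. Against 1 ppm 6 changed (73.7%) and against 40 ppm all 7 did (70.9%). The median gene was 0.155 above air at 120 ppm, beside 1.32 for Igfbp2, 0.98 for Igfbp4 and 0.89 for Igfbp6. With the spike-in level of each array as a covariate, 3 changed against air (Igf1r, Igfbp2 and Igfbp4), 3 against 1 ppm (Igf1r, Igfbp2 and Igfbp3) and none against 40 ppm. The spike-in levels at 120 ppm did not overlap those of the other doses, so this fit cannot separate spike-in level from dose. The calls lost against air were Igfbp3 (-0.95, adjusted p = 0.12, and -1.06 without the covariate), Igfbp5 (-0.02, adjusted p = 0.963, and -0.58 without it) and Igfbp6. Those lost against 1 ppm were Igfbp4, Igfbp5 (0.13, adjusted p = 0.784) and Igfbp6. Against 40 ppm, Igf1r differed by -0.77 (adjusted p = 0.271), Igfbp2 by 0.49 (adjusted p = 0.284) and Igfbp3 by 0.59 (adjusted p = 0.393) in that fit. Without 120 ppm replicates 4 and 5 the counts were 6, 6 and 7.

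**Figure D3:**
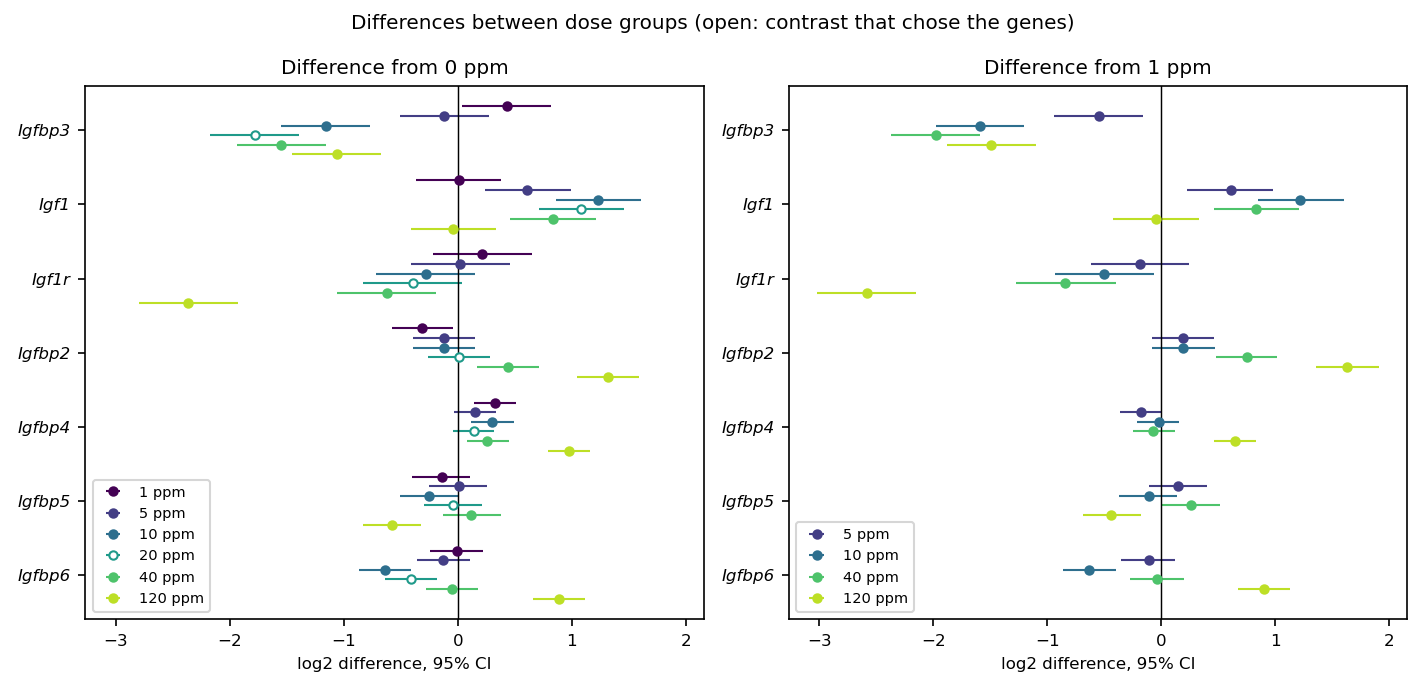
Log2 difference of each gene's group mean (horizontal axis) from 0 ppm (left) and from 1 ppm (right), with 95% confidence intervals from limma over 35 arrays; colours are doses in ppm and the open points at 20 ppm mark the comparison that chose the genes. Igfbp3 lies left of 0 from 10 ppm up in both panels, between -1.06 and -1.78 on the left and between -1.49 and -1.98 on the right, and Igf1 lies right of 0 at 10 and 40 ppm.

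Some genes traced dose patterns close to these. Likeness was measured as the root mean square difference between the 6 log2 differences from air, over 7495 or 7496 genes above background in air. The nearest to Igfbp3 were Elapor1 (0.285), Lypd2 (0.293), Traf1 (0.333), Lpar3 (0.338) and Ankrd63 (0.342). Elapor1 was at -1.09, -1.37, -1.35 and -1.42 for 10, 20, 40 and 120 ppm, and Igfbp3 at -1.16, -1.78, -1.55 and -1.06. The nearest to Igf1 was Mlec (0.119), at 1.14 for 10 ppm and -0.18 for 120 ppm, followed by Apobec3 (0.213) and Jpt2 (0.22). For the genes whose main movement was at 120 ppm, the nearest were Pam, Dtna and Deptor for Igf1r (0.102 to 0.123), Slc15a3, Fibp and Ptrhd1 for Igfbp2 (0.081 to 0.09), and Mllt6, Smpd2 and Klhl25 for Igfbp6 (0.077 to 0.079). Igfbp4 was nearest to Kti12, Sharpin and Sf3b4 (0.066 to 0.076) and Igfbp5 to Pdcd2, Fam118a and Pcbd1 (0.051 to 0.065). All of these distances use the same air arrays.

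Igfbp3 and Igfbp1 are neighbours on mouse chromosome 11, and Igfbp2 and Igfbp5 on chromosome 1, in the RefSeq order. Igfbp1 was at background on every array, so whether it moved with Igfbp3 cannot be read.

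Of 40 other genes of the IGF axis and its outputs, 35 were measured; the rest, Igf2r among them, were not analysed here. Among 6 other ligands, receptors and binding proteins none changed at 10 or 40 ppm against air (medians -0.08 and -0.01, all genes -0.02 and 0.01). Igf2, the sister hormone, was at background on 4 air arrays and differed by -0.28 at 10 ppm (adjusted p = 0.1709). At 10 ppm against 1 ppm Igf2 differed by -0.44 (adjusted p = 0.018), with no array of either group above background. That difference did not pass after quantile normalisation (-0.40, adjusted p = 0.0662). Insr, the insulin receptor, differed by -0.31 at 10 ppm and at 40 ppm (adjusted p = 0.5167 and 0.5048). Igfbp1, Igfbpl1 and Igfals, which completes the large carrier complex in blood, were at background at all doses. At 120 ppm no Igf2 array was above background, so no direction is given for it there. Insr, above background on 1 array at 120 ppm, fell at least 1.12-fold (adjusted p = 0.0015), and its difference missed the threshold after quantile normalisation (-0.46, adjusted p = 0.0771).

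Among 8 proteases of binding proteins and their inhibitors, 1 rose at 10 ppm against air (11.8% of all genes changed) and 1 fell at 40 ppm (12.7%), shares near those of all genes. These were Adam12 (0.42, adjusted p = 0.03971, at background) and Adam28 (-0.51, adjusted p = 0.01418). Adam12 did not pass after either rescaling of the arrays. Adam28 was above background on 1 air array and 1 array at 40 ppm, and it did not pass after quantile normalisation (-0.43, adjusted p = 0.0554). Pappa and Pappa2, which encode proteases of Igfbp4 and Igfbp5 and are named after their values were seen, were at background on every array.

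Of 15 genes of receptor signalling, 1 rose and 1 fell at 10 ppm against air, and 3 rose and 1 fell at 40 ppm. At 10 ppm the adaptor Grb2 rose by 0.33 (adjusted p = 0.00564) and Foxo3, a transcription factor that the pathway holds out of the nucleus, fell by 0.57 (adjusted p = 0.01405). At 40 ppm Grb14, an inhibitor of insulin receptor signalling, rose by 0.62 (adjusted p = 0.0009238), the adaptor Shc1 by 0.40 (adjusted p = 0.001657) and Grb2 by 0.31 (adjusted p = 0.01033), and the kinase Pdpk1 fell by 0.37 (adjusted p = 0.02769). These shares stand beside 11.8% and 12.7% of all genes. At 120 ppm 6 rose and 7 fell, beside 74.8% of all genes. Of these, 1 that rose was at background on every array, and 1 that fell did not pass with arrays centred on their medians. The kinase Akt1 rose by 1.27 at 120 ppm and the adaptor Grb10, above background on 4 of the 5 arrays, fell at least 2.29-fold. Irs1, the receptor's docking protein, was above background on no 120 ppm array and Pik3r1 on 1, so that their falls are bounds, at least 1.82-fold and at least 2.14-fold.

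Of 6 genes of the growth hormone axis, 2 fell at 10 ppm against air (where 11.8% of all genes changed), namely the receptor Ghr (-0.51, adjusted p = 0.008685) and the transcription factor Stat5b (-0.44, adjusted p = 0.0105). At 40 ppm (12.7% of all genes) Stat5b fell (-0.39, adjusted p = 0.02474) and Cish, a feedback inhibitor that Stat5 induces, rose by 0.59 (adjusted p = 0.003656). At 10 ppm against 1 ppm (11.1% of all genes) 1 of the 6 fell, Stat5b, with means of 7.32 and 7.82. Ghr differed by -0.38 there and missed the threshold (adjusted p = 0.0568), which it passed after either rescaling of the arrays. The relation of these genes to Igf1 was not tested. At 120 ppm (74.8% of all genes) Cish rose by 1.47, Ghr fell at least 2.66-fold and Socs2, another feedback inhibitor, fell by 1.38.

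**Figure D4:**
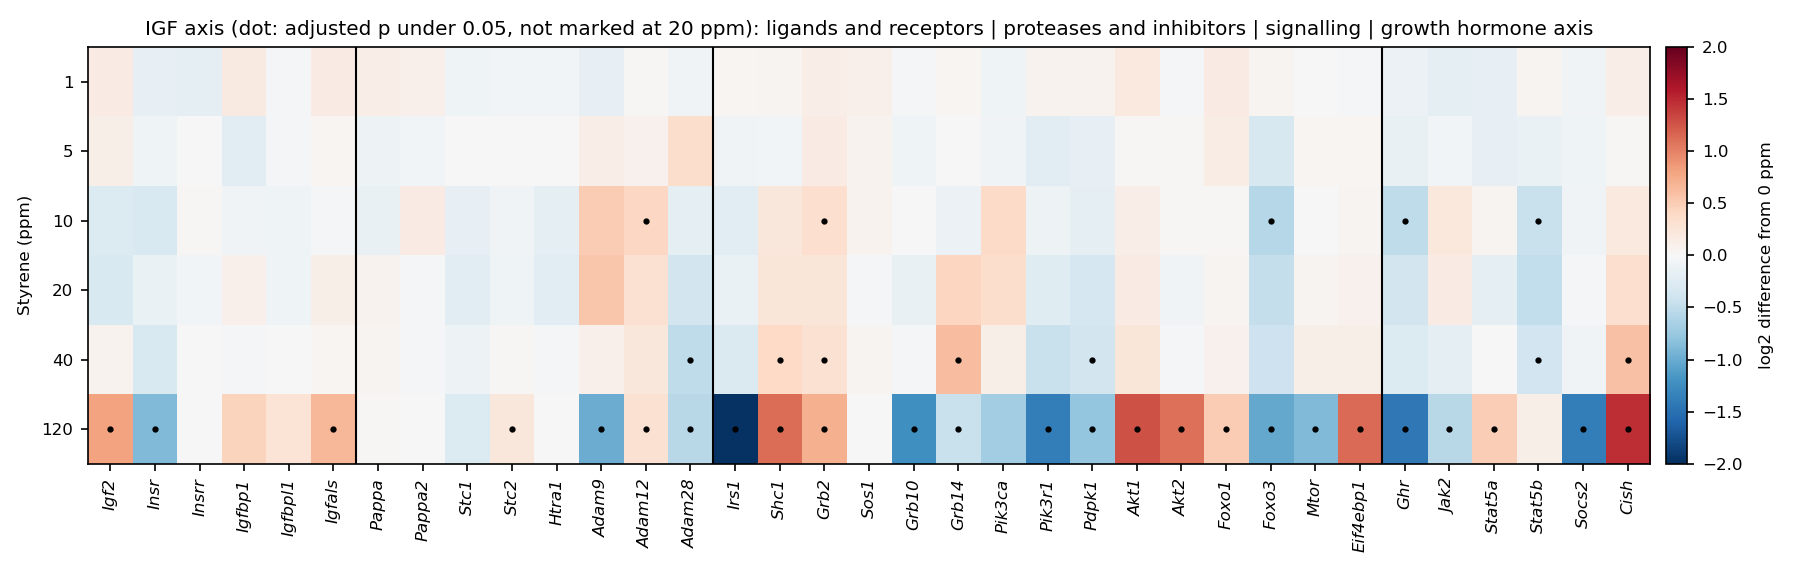
Log2 difference from 0 ppm (colour, -2 to 2) of 35 other IGF axis genes (columns, by list) at each styrene dose in ppm (rows); dots mark an adjusted p under 0.05 by limma and are not drawn at 20 ppm. Few dots lie at 10 ppm and 40 ppm, and most genes above background carry one at 120 ppm.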

How the data were processed

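Whole-lung RNA from 35 mice was read on 1 Affymetrix array each. The deposited values are log2 signals per probe set, made by the authors with RMA and Partek, per the submitters' processing notes; their versions and settings: not given in the sources used here. RMA as usually run equalises probe intensities between arrays, which can mask a shift common to most genes. Of 45141 probe sets, 28898 carry 1 gene symbol in the platform annotation, 551 carry several, 15588 are not listed there and 104 are controls; only those with 1 symbol were used. A gene was read from its brightest probe set (by mean of the 35 arrays), giving 17097 genes, all tested with no filter on dim ones. limma 3.58.1 in R 4.3.3 was fitted with 1 mean per dose over all 35 arrays (lmFit and eBayes, two-sided, Benjamini-Hochberg adjustment, threshold 0.05). Intervals are 95%. A gene was above background on an array if it exceeded the highest of 23 nonspecific-hybridisation controls there. The steps were tested on simulated data. The genes and lists were chosen with earlier results of these data known; all 8 genes are named, and of other lists at most 4 genes past the threshold per list and comparison, by size, plus 6 ligands, receptors and binding proteins whatever their values. Alternatives were 2 rescalings, other probe set rules, variance models, array weights, a replicate block and left-out arrays. The labels number the replicates and do not say whether equal numbers pair the mice. The number of arrays limits the precision.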

Additional observations from a re-analysis of the deposited data

Results flagged for a closer look

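In the 120 ppm group, the Igf1 signal of replicate 4 was 5.01, and the nearest of the other 4 arrays was 5.72. The gap is 0.882 of the group's range, above the 0.71 that Dixon's test allows for 5 values. It was the only one of 49 groups (7 genes at 7 doses) set apart in this way, 2.04% of them, where chance sets apart about 1 in 20. All 5 of these signals lay below the background control of their arrays, and replicate 4 also had the lowest median of the 120 ppm arrays.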

How the results depend on the processing

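Over all alternatives, 1649 results kept their side of the threshold and, where they passed it, their direction. A further 41 came to pass the threshold, 28 no longer passed and 4 reversed. Results that passed in neither fit are among the 1649 whatever their sign or size. Igf1 at 120 ppm against air, for example, ranged from -0.04 to 0.95. At 40 ppm against air 5 genes changed instead of 3 after repeated quantile normalisation, with dim genes left out (8077 genes, all 7 kept), with a trended and robust variance, with array weights, without the 120 ppm group in the fit, with the spike-in covariate and with the replicate block; Igf1r and Igfbp4, just short of the threshold otherwise, were the additions. The replicate block, which gave 5 there, moved no other count of changed genes by over 1.5 times; same-numbered arrays deviated together (r over 0.1) in 53 of 105 pairs, with a median r of 0.11 (-0.51 to 0.64) against -0.03 for other numbers. One gene, Igf1, changed at 5 ppm against air (count 1 instead of 0) with array weights or the spike-in covariate. The same count of 1 arose at 5 ppm against 1 ppm with array weights, the spike-in covariate, without both arrays of animal number 15 and without the 4 arrays with hepatocyte RNA. With the spike-in covariate, chosen after seeing the data as were the 2 settings that left out 120 ppm replicates 4 and 5 or the hepatocyte RNA arrays, 3 genes changed at 120 ppm against air, 3 against 1 ppm and 0 against 40 ppm. The reversals were Igf1 at 120 ppm against air (0.42) and 1 ppm (0.43) after quantile normalisation, and, with the covariate, Igfbp5 at 120 against 1 ppm (0.13) and Igf1 at 120 against 40 ppm (0.13); the cause was not tested. Leaving out 1 array at a time gave counts of 3 to 4 (10 ppm against air or 1 ppm), 2 to 4 (40 ppm against air), 0 to 1 (5 against 1 ppm), 2 to 3 (40 against 10 ppm) and 6 to 7 (120 against 40 ppm), and no other range. Signals near background limit what can be said of Igf1 in air and at 120 ppm and of Igf1r and Igfbp5 at 120 ppm.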
